A study of Mus musculus with 28 samples.

Results

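Microglia sense extracellular nucleotides and adenosine through surface receptors, and surface enzymes break nucleotides down. The 9 genes described here encode some of these proteins. They include the P2Y receptors P2ry12, P2ry13 and P2ry6 and the P2X channels P2rx4 and P2rx7. The others are the ectonucleotidase Entpd1 and the adenosine receptors Adora2a, Adora2b and Adora3. All 9 were chosen by symbol, with earlier results of these data known. They come from a table of 40021 genes measured by mRNA-Seq in microglia of 28 single mouse retinas. All 9 were listed in the table. The groups were 10 naïve retinas and retinas taken 4 h (n = 6), 18 h (n = 5) or 2 weeks (n = 7) after 10 ng lipopolysaccharide (LPS), a molecule of the outer membrane of Gram-negative bacteria, had been injected into the vitreous to give endotoxin-induced uveitis (EIU). The comparisons ask how the microglial transcriptome changes during acute inflammation and what it looks like once the inflammation has subsided. All mice were male Cx3cr1CreER:R26-tdTomato (C57BL/6) heterozygotes that received topical tamoxifen over 3 days at 4 to 5 weeks of age, with LPS given 4 weeks later. In this strain tamoxifen releases a Cre recombinase expressed under the fractalkine receptor gene Cx3cr1, which switches on the red fluorescent protein tdTomato. The paper reports that part of the microglia was tagged without tamoxifen as well. Live tdTomato-bright cells were sorted, so that a population defined by past Cx3cr1 promoter activity was sampled in every group, naïve retinas included. Retinas injected with vehicle were not analysed here, and the effect of LPS cannot be told apart from that of the injection. Left and right eyes were used in 2 experiments. Experiment 1 held 6 naïve, 3 4 h, 4 18 h and 4 2-week retinas and experiment 2 held 4, 3, 1 and 3. The labels do not tie eyes to animals, so 2 retinas may come from 1 mouse, and p-values measure the spread between retinas.

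When cells are stressed or damaged they release ATP and UTP. Enzymes on the cell surface break ATP down to ADP, AMP and adenosine, and UTP to UDP. Receptors exist for ATP, ADP, UDP and adenosine. P2RY12 and P2RY13 are receptors for ADP coupled to inhibitory G proteins, and P2RY12 is the receptor through which ramified microglia steer their processes towards a source of ATP. P2RY6 responds to UDP and has been linked to phagocytosis. P2RX4 and P2RX7 are cation channels opened by ATP, of which P2RX7 needs far more ATP and is the classical trigger of inflammasome activation. ENTPD1 (CD39) converts ATP and ADP to AMP, the first step towards adenosine, and ADORA2A, ADORA2B and ADORA3 bind adenosine, the former pair raising and the last lowering cyclic AMP. P2ry12 in particular is widely used as a marker of resting microglia.

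P2ry12 and P2ry13 are neighbours on mouse chromosome 3 and were the members whose levels were lowest relative to naïve retinas at 4 h. In the GENCODE M21 annotation of GRCm38, P2ry12 lies at chr3:59216272-59262871 and P2ry13 at chr3:59207892-59210882, both on the minus strand, with 5389 bases between them and both inside the longer gene Med12l on the plus strand. The 250 bases upstream of the RefSeq start site are shown for this pair because the genes are neighbours and were both called lower at 4 h. They are written 5′ to 3′ on the minus strand of GRCm38.p6, from chr3:59262986-59263235 for P2ry12 and from chr3:59210883-59211132 for P2ry13, with capitals marking matches to the short motifs named after them.
P2ry12: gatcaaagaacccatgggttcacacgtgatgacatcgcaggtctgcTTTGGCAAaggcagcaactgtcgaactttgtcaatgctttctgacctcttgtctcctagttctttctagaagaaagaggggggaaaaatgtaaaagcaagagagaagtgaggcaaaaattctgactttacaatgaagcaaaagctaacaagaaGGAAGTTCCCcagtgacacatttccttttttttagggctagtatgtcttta
P2ry13: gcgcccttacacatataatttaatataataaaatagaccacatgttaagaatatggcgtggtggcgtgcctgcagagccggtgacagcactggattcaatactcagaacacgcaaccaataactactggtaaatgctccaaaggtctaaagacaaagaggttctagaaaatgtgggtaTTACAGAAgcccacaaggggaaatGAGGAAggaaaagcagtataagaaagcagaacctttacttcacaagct
Each window was searched on both strands for 7 motifs, whose letters were chosen with the expression values known. For P2ry12 the capitals mark a C/EBP-type match (TTNNGNAA) that starts 204 bases before the start site and an NF-kappa B-type match (GGG and CC with any 5 bases between, here on the opposite strand) that starts 51 bases before it. For P2ry13 they mark a C/EBP-type match at 72 bases and a PU.1-type match (GAGGAA) at 48 bases before the start site. Of 32851 RefSeq promoter windows of the same length, 36.8% held the C/EBP letters, 45.8% the NF-kappa B letters and 23.3% the PU.1 letters, so each of these matches is common. Neither window held the letters of AP-1 (TGANTCA, 6.75% of windows), the cyclic AMP response element (TGACGTCA, 1.55%) or its TGACG core (17.8%), or those of an interferon-stimulated element (GAAA and GAAA with any 2 bases between, 2.98%). Windows were matched for 7 of the 9 members, and those of P2ry6 and Adora2a were not. A match of letters is a description of the sequence and not a site of binding.

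Levels are given as RPKM, reads per kilobase of transcript scaled to the number of mapped reads, as deposited by the authors, which allows levels of different genes to be compared per length. In naïve retinas P2ry12 stood far above the other members, from 866 to 2714 RPKM with a median of 1769. P2ry13 followed at 81.0 to 406 RPKM (median 277), and the ranges of this pair did not overlap. Entpd1 ranged from 16.2 to 73.1 RPKM (median 31.5), P2ry6 from 1.11 to 93.0 (median 15.3) and Adora3 from 1.08 to 32.0 (median 9.72), and these ranges overlapped widely. The channels were lower, with P2rx7 at 4.72 to 14.96 RPKM (median 7.60) and P2rx4 at 0.0479 to 22.6 RPKM (median 4.59). Adora2b was listed at 0 in 9 of 10 naïve retinas and Adora2a likewise in 9 of 10. P2ry12 alone took between 72.7% and 91.3% of the summed RPKM of the 9 members in a naïve retina. The plot of the members by retina shows these levels on a log2 scale together with the time course.

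**Figure D1:**
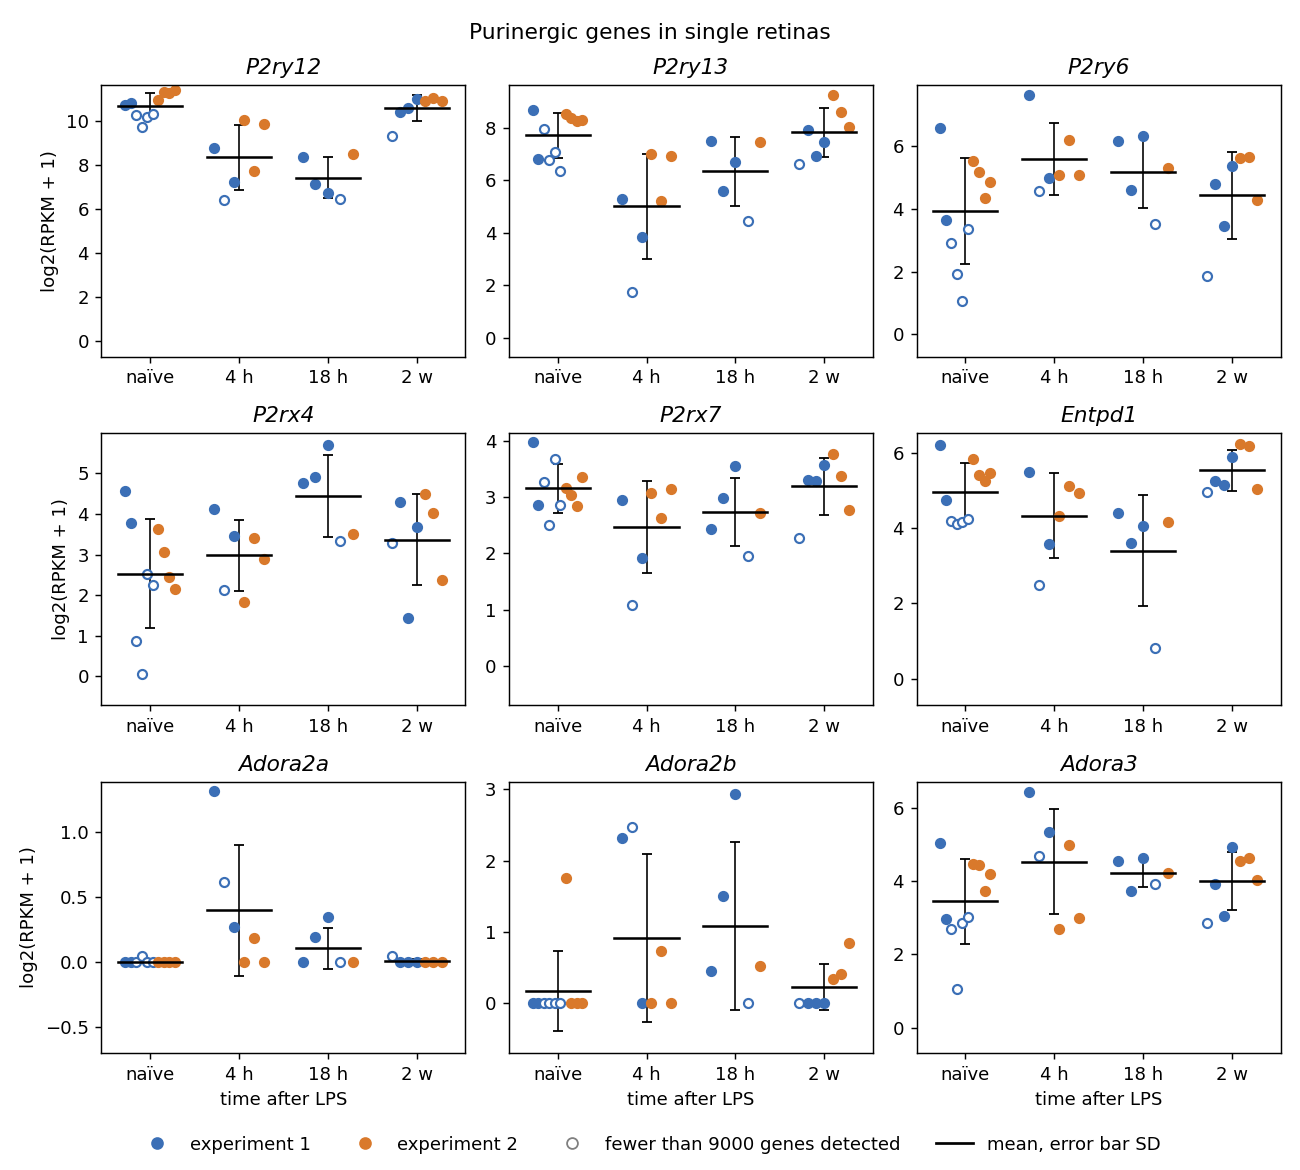
Levels of the 9 purinergic genes in each of the 28 retinas, as log2(RPKM + 1) on the y axis of each panel (scales differ between panels), by time after LPS on the x axis; blue and orange points are experiments 1 and 2, open points are retinas with fewer than 9000 genes at an RPKM of at least 1, and bars give the mean with the SD. All 5 retinas at 18 h lay below all 10 naïve retinas for P2ry12, while Adora2a and Adora2b were at or near 0 in most naïve retinas.

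The stated number of alignments ran from 7510000 to 19700000 per retina, and between 6552 and 11825 genes reached an RPKM of 1. In 7 retinas, all of experiment 1, this number was below 9000, of which 4 were naïve and 1 came from each other group. Any 2 retinas had at most 2 identical values above 0 in common. The sorted cells carried microglial markers. The fractalkine receptor Cx3cr1 ranged from 45.2 to 318 RPKM and Tmem119 from 70.5 to 1167 RPKM in naïve retinas. Since one Cx3cr1 allele carries the CreER insert in every group, Cx3cr1 levels compare only between groups of this strain. Summed neutrophil markers were at most 0.264 RPKM in naïve and 4 h retinas and reached 15.8 RPKM in 1 retina at 18 h, with Ly6g, Mpo, Ngp, Retnlg and Cxcr2 under 1 in all. Summed lymphocyte markers reached 18.5 RPKM at 18 h, and summed monocyte markers spanned 0.139 to 29.1 RPKM in naïve retinas and 0.0321 to 33.0 RPKM at 18 h. Rod transcripts were present in every retina, from 611 to 5142 RPKM summed over 7 genes, with the lowest median at 18 h. Platelet transcripts, summed over 5 genes, also had their lowest median at 18 h, 27.4 RPKM (4.34 to 30.2 RPKM). The naïve median was 178 RPKM (0.231 to 416 RPKM), and those of 4 h and 2 weeks were 110 and 105 RPKM. Müller glia sums had medians of 138 RPKM for the naïve group and 48.8 RPKM for 18 h. Erythrocyte sums reached 735 RPKM at 4 h and at most 67.9 RPKM in other groups. The part of rod, platelet, glial and erythrocyte transcripts in the results was not tested.

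Differences between groups were tested on log2(RPKM + 1) with limma, in one fit of the 28 retinas, and p-values were adjusted over the 13164 genes that reached an RPKM of 1 in 5 or more retinas. A gene was called where its adjusted p was 0.05 or lower and it changed 2-fold or more. Of the 9 members, 8 passed the filter and Adora2a did not. Adora2b passed it with exactly 5 retinas, 4 of them at 4 h or 18 h, so that its presence among the genes tested rests on the groups in which it was high. Differences are given on the log2(RPKM + 1) scale with their standard error (SE), which understates changes of genes at low levels.

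P2ry12 and P2ry13 were the members down-regulated at 4 h. P2ry12 ranged from 85.3 to 1076 RPKM at 4 h with a median of 328, against 866 to 2714 RPKM in naïve retinas. The groups overlapped in part, since 4 of 6 retinas lay below all naïve values and the other pair, both of experiment 2, lay at 954 and 1076 RPKM. The difference was -2.35 (SE 0.43, adjusted p = 0.000319 from limma). P2ry13 ranged from 2.37 to 127 RPKM (median 37.2) against 81.0 to 406 RPKM, again with 4 of 6 retinas below all naïve values. Its difference was -2.70 (SE 0.60, adjusted p = 0.00269 from limma). These 2 of 8 tested members compare with 4.39% of all genes tested that were called lower at 4 h, and no member was called higher, against 3.68% of all genes. With the 2 called members in it, the median difference of the 8 members was -0.09, beside -0.11 for all genes tested. In sorted cells given as a bulk measurement, fewer cells carrying the transcript and less transcript per cell cannot be told apart.

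Both decreases were present within each experiment. For P2ry12 the difference was -2.87 in experiment 1 (adjusted p = 0.00184 from limma) and -2.02 in experiment 2 (adjusted p = 0.0130). For P2ry13 it was -3.65 in experiment 1 (adjusted p = 0.00479 from limma) and -1.97 in experiment 2 (adjusted p = 0.00840). The difference between the experiments was itself not called for P2ry12 (0.84, SE 0.73) or P2ry13 (1.68, SE 0.95). Absolute levels differed between experiments as well, with naïve P2ry12 at 866 to 1824 RPKM in experiment 1 and 1994 to 2714 RPKM in experiment 2.

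The kit does not mark strand, and Med12l covers both genes from the other strand. Med12l itself was low, at 1.59 to 4.46 RPKM in naïve retinas and 0 to 1.39 RPKM at 4 h. The homeostatic marker Cx3cr1 was also down-regulated at 4 h, from 45.2 to 318 RPKM in naïve retinas to 6.37 to 35.5 RPKM (difference -2.05, SE 0.40, adjusted p = 0.000688 from limma), while Tmem119 was not called at 4 h (-1.29, SE 0.56, adjusted p = 0.172).

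At 18 h P2ry12 was the member called against naïve retinas, and its level was lower in every 18 h retina than in any naïve retina. The 5 retinas at 18 h had 332, 139, 104, 88.3 and 360 RPKM of P2ry12. The groups did not overlap, as for 1.30% of all genes tested that lay wholly below the naïve values. The difference was -3.28 (SE 0.46, adjusted p = 1.73e-05 from limma). This 1 of 8 members compares with 1.85% of all genes called lower at 18 h, and 0 of 8 were called higher against 2.84% of all genes. Experiment 1 alone gave -3.18 (adjusted p = 0.000651), and experiment 2, with a single 18 h retina, gave -2.76 (adjusted p = 0.0834 from limma, with that retina assumed to vary like the others).

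P2ry13 was not called at 18 h. Its 18 h values of 180, 47.1, 102, 20.8 and 175 RPKM overlapped the naïve range in 3 of 5 retinas, and the difference was -1.37 (SE 0.64, adjusted p = 0.255 from limma). From 4 h to 18 h the estimate for P2ry13 was 1.33 (SE 0.71, 95% confidence interval -0.11 to 2.77, adjusted p = 0.363) and that for P2ry12 was -0.92 (SE 0.51, 95% confidence interval -1.96 to 0.12, adjusted p = 0.390), so neither gene was called between these time points. The ratio of P2ry12 to P2ry13 RPKM was 4.22 to 16.3 in naïve retinas (median 8.18) and 5.76 to 36.05 at 4 h (median 9.91). At 18 h it was 1.84, 2.96, 1.02, 4.25 and 2.06, with 4 of 5 values below every naïve value. At 2 weeks it was 3.18 to 12.9 (median 6.61). The ratio was described after the values were seen and was not tested. The share of P2ry12 in the summed RPKM of the 9 members was 26.6% to 60.4% at 18 h (median 51.4%), below the naïve range throughout. At 4 h it was 52.6% to 84.7%, with a median of 57.8% against a naïve median of 86.8%, so a lower share was not particular to 18 h.

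**Figure D2:**
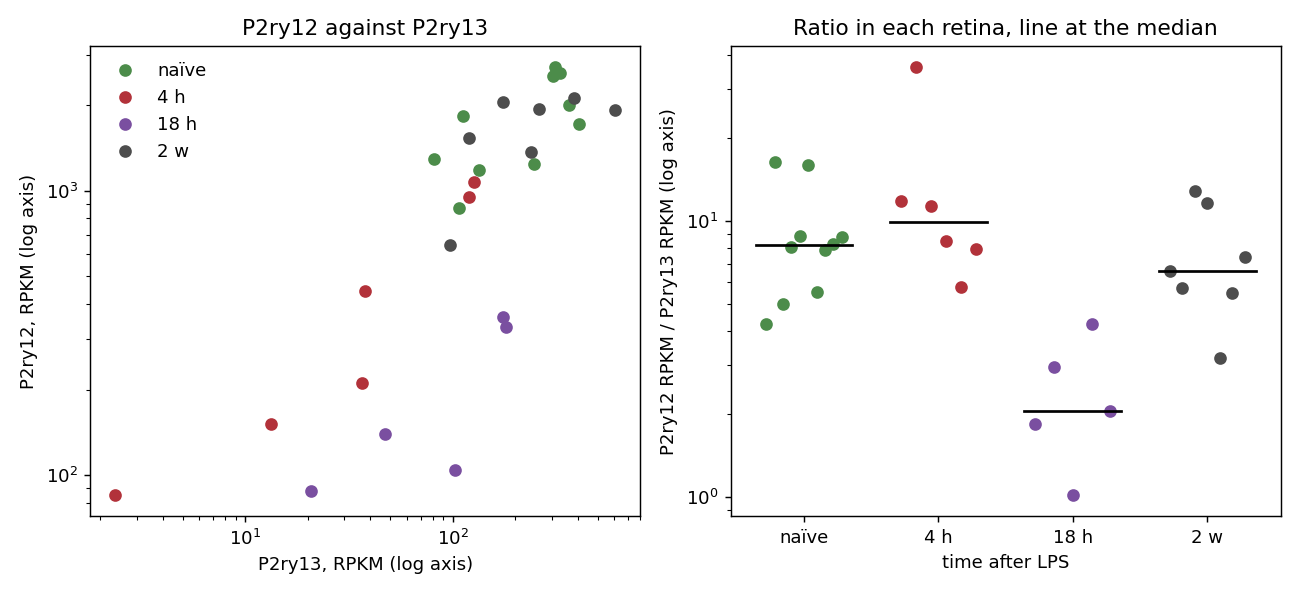
Left, P2ry12 against P2ry13 in RPKM on log axes, 1 point per retina coloured by group; right, their ratio in each retina on a log axis, with the line at the group median. The 18 h ratios lay between 1.02 and 4.25, while the naïve ratios lay between 4.22 and 16.3.

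P2ry6, the UDP receptor, went the other way in its estimates without being called. It ranged from 22.5 to 193 RPKM at 4 h (median 32.7) against 1.11 to 93.0 RPKM (median 15.3) in naïve retinas, and 1 of 6 retinas lay above all naïve values. The difference was 1.65 (SE 0.68, adjusted p = 0.146 from limma). At 18 h its values were 69.4, 23.3, 77.2, 10.3 and 37.7 RPKM, all within the naïve range, with a difference of 1.23 (SE 0.72, adjusted p = 0.395). The spread within the naïve group moved with the number of genes detected. P2ry6 was 1.11 to 9.19 RPKM in the 4 naïve retinas with fewer than 9000 genes and 11.5 to 93.0 RPKM in the other 6. With the number of genes detected as a covariate, an alternative added after seeing the data, P2ry6 was called at 4 h (1.65, adjusted p = 0.00368 from limma) and at 18 h (1.56, adjusted p = 0.0133).

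Of the ATP-gated channels, P2rx4 had its highest values at 18 h. Its 18 h values were 26.0, 29.0, 51.2, 9.05 and 10.3 RPKM, where naïve retinas had 0.0479 to 22.6 RPKM (median 4.59). The 3 highest, all of experiment 1, lay above every naïve retina and the other pair fell inside the naïve range. The difference was 1.91 (SE 0.60, 95% confidence interval 0.69 to 3.12) and missed the threshold (adjusted p = 0.0598 from limma). It passed it when naïve retina 1, 2 or 7, 18 h retina 4 or 2-week retina 3 was left out (1.59 to 2.18 over all retinas left out in turn), after quantile normalisation (adjusted p = 0.0387), and with the number of genes detected as a covariate (adjusted p = 0.00343). In experiment 2 alone the estimate was 0.68 (adjusted p = 0.749). At 4 h P2rx4 ranged from 2.59 to 16.3 RPKM (median 8.07), within the naïve range, with a difference of 0.45 (SE 0.56, adjusted p = 0.720) that was -0.10 in experiment 2.

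P2rx7, the channel linked to the inflammasome, was not called in any comparison. It lay between 1.10 and 7.92 RPKM at 4 h (median 5.93), and was 4.39, 6.98, 10.8, 2.86 and 5.60 RPKM at 18 h, against 4.72 to 14.96 RPKM in naïve retinas. In both groups 2 retinas fell below all naïve values. The differences were -0.69 at 4 h (SE 0.34, 95% confidence interval -1.39 to -0.0011, adjusted p = 0.243 from limma) and -0.43 at 18 h (SE 0.36, 95% confidence interval -1.16 to 0.31, adjusted p = 0.591). Both intervals held a 2-fold decrease on this scale, and neither reached a 4-fold change. P2rx7 and P2rx4 are themselves neighbours on chromosome 5, at chr5:122643911-122691432 and chr5:122707544-122729738 on the plus strand, with 16111 bases between them.

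Entpd1, which starts the breakdown of ATP and ADP, was lowest at 18 h. It was 20.0, 11.1, 15.6, 0.758 and 16.8 RPKM at 18 h against 16.2 to 73.1 RPKM (median 31.5) in naïve retinas, with 3 of 5 retinas below every naïve value. The difference was -1.56 (SE 0.51, 95% confidence interval -2.61 to -0.52) and was not called (adjusted p = 0.0755 from limma). It was called without the 7 retinas with few genes (-1.44, adjusted p = 0.0107), an alternative added after seeing the data, after quantile normalisation (adjusted p = 0.0473) after rescaling to equal summed RPKM (-1.84, adjusted p = 0.0366) and with the number of genes detected as a covariate (adjusted p = 0.0102). At 4 h Entpd1 ranged from 4.57 to 44.0 RPKM (median 24.5), with 2 of 6 retinas below all naïve values and a difference of -0.63 (SE 0.48, adjusted p = 0.502). Among naïve retinas the 4 with few genes had 16.2 to 18.1 RPKM and the other 6 had 25.7 to 73.1 RPKM, without overlap.

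**Figure D3:**
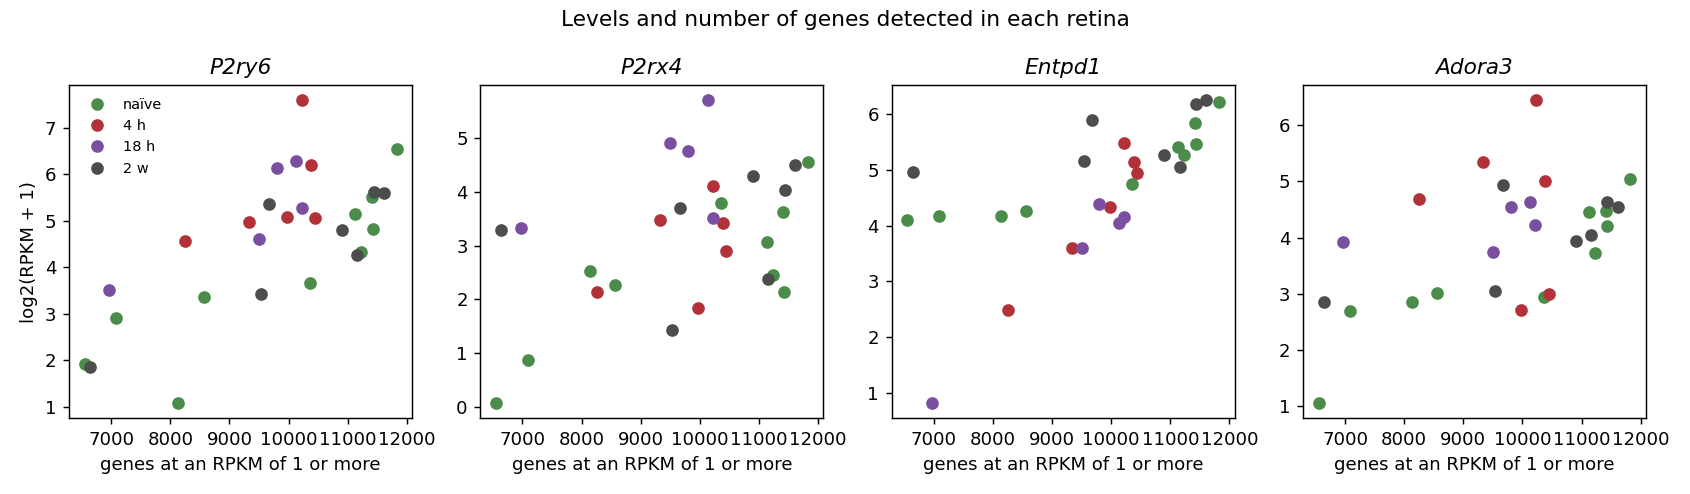
Levels of P2ry6, P2rx4, Entpd1 and Adora3 as log2(RPKM + 1) against the number of genes that reached an RPKM of 1, with 1 point per retina coloured by group. The 4 naïve retinas with fewer than 9000 genes lie at the low end for Entpd1, at 16.2 to 18.1 RPKM.

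The adenosine receptors differed in level and pattern. Adora3, the receptor that lowers cyclic AMP, ranged from 5.53 to 86.2 RPKM at 4 h (median 27.9) against 1.08 to 32.0 RPKM in naïve retinas, with 2 of 6 retinas above all naïve values. The difference was 1.08 (SE 0.53, adjusted p = 0.237 from limma). The estimates of the experiments went apart, and so did the genes detected in their naïve retinas. The 4 naïve retinas with fewer than 9000 genes, all of experiment 1, had 1.08 to 7.14 RPKM of Adora3. The other 6 had 6.75 to 32.0 RPKM, with a median of 19.1. The part of this in the difference between experiments was not tested. In experiment 1 the 4 h retinas had 86.2, 24.8 and 39.6 RPKM against a naïve median of 6.47, a difference of 2.56 (adjusted p = 0.0458), and in experiment 2 they had 5.53, 31.0 and 6.98 RPKM against a naïve median of 19.1, a difference of -0.65 (adjusted p = 0.384). The difference between the experiments, -3.20 (SE 0.93), had an unadjusted p = 0.00185 from limma but did not pass the adjustment (adjusted p = 0.350). Among the 8 members, 0 were called in this test, against 0.0988% of all genes, and 2 (Adora3 and Adora2b) had an unadjusted p under 0.05, against 4.71% of all genes. Adora2b was listed at 0 in 9 of 10 naïve retinas and passed the filter mostly through groups in which it was high. Its p therefore gives no support here. At 18 h Adora3 was 22.4, 12.4, 23.8, 14.2 and 17.7 RPKM, within the naïve range (0.77, SE 0.56, adjusted p = 0.520). Adora3 shares its locus at chr3:105870858-105908926 with Tmigd3, which was listed at up to 4.12 RPKM, and reads of the overlapping part may have been divided between them.

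Adora2b and Adora2a, the receptors that raise cyclic AMP, were listed at 0 in many retinas. For Adora2b, 1 read corresponded to about 0.0275 to 0.0722 RPKM at these depths. At 4 h it was listed at 3.96, 4.56 and 0.655 RPKM in 3 retinas and at 0 in 3, and at 18 h at 0.375, 1.83, 6.67, 0 and 0.432 RPKM. In naïve retinas it was at 0 in 9 and at 2.39 RPKM in 1, and at 2 weeks it was at 0 in 4 and at most at 0.794 RPKM. The differences of 0.74 at 4 h (SE 0.39, adjusted p = 0.288 from limma) and 0.91 at 18 h (SE 0.42, adjusted p = 0.247) were not called. Adora2a was listed above 0 in 4 of 6 retinas at 4 h, at 1.49, 0.538, 0.204 and 0.141 RPKM, which included all 3 retinas of experiment 1. It was above 0 in 1 of 10 naïve retinas (0.0367 RPKM, about 1 read), in 2 of 5 at 18 h (0.145 and 0.270 RPKM) and in 1 of 7 at 2 weeks (0.0330 RPKM). A fit without the filter, over 37928 genes, gave it 0.39 at 4 h (SE 0.12, adjusted p = 0.0940 from limma), which did not pass the threshold. An exact 0 in these estimated values need not mean that no read was present.

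At 2 weeks no member was called against naïve retinas. With limma 0 of 8 members were called and 0 had an unadjusted p under 0.05, where 0.00760% of all genes tested were called and 2.87% had such a p. P2ry12 ranged from 642 to 2121 RPKM (median 1929), with 1 retina below all naïve values, and its difference was -0.12 with a 95% confidence interval of -0.96 to 0.73. P2ry13 ranged from 97.1 to 607 RPKM (median 238), a difference of 0.12 with an interval of -1.05 to 1.29. Entpd1 ranged from 30.1 to 75.3 RPKM (0.57, interval -0.37 to 1.51) and P2rx4 from 1.70 to 21.6 RPKM (0.84, interval -0.26 to 1.93). P2ry6 at 2.59 to 48.5 RPKM and Adora3 at 6.23 to 29.7 RPKM lay within the naïve ranges, and P2rx7 at 3.84 to 12.6 RPKM had 1 retina below. A level 2-fold above that of naïve retinas lay inside the intervals of P2ry13, P2ry6, P2rx4, Entpd1 and Adora3, and outside those of P2ry12 and P2rx7. The difference between the experiments at 2 weeks was called for 0 of 8 members by limma, against 0% of all genes, and 0 had an unadjusted p under 0.05, against 2.91% of all genes.

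**Figure D4:**
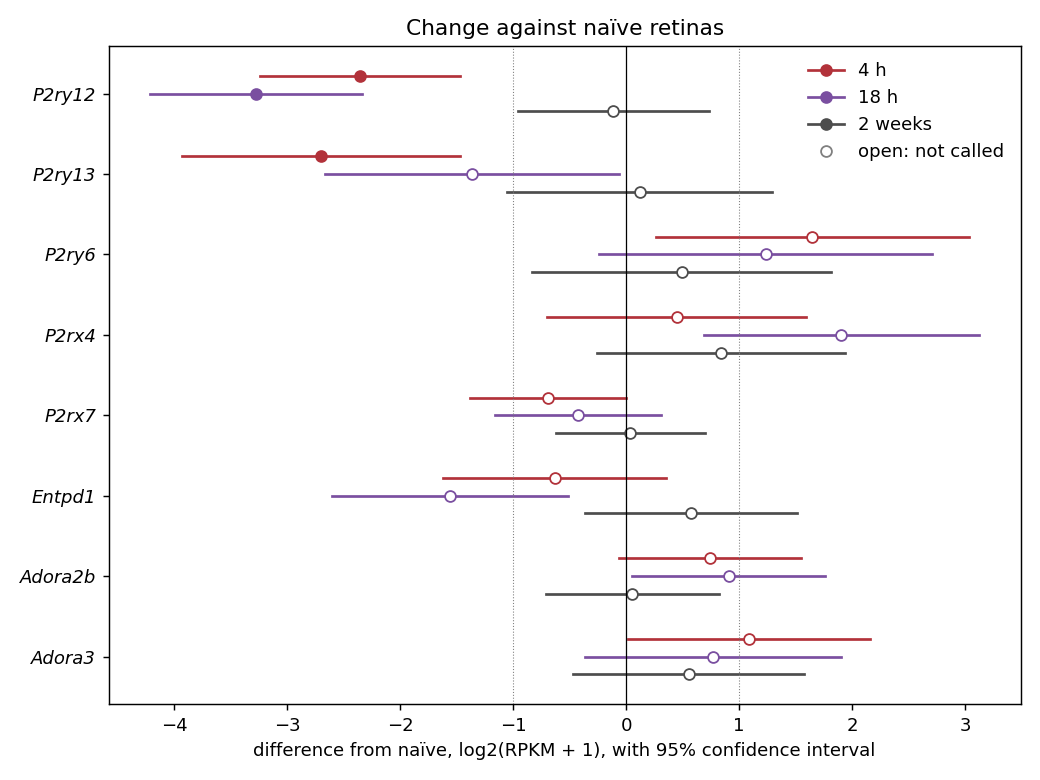
Differences from naïve retinas on the log2(RPKM + 1) scale with 95% confidence intervals for the 8 members tested, at 4 h (red), 18 h (purple) and 2 weeks (grey); filled points were called, and dotted lines mark a 2-fold change. P2ry12 was called at 4 h (-2.35) and 18 h (-3.28), P2ry13 at 4 h (-2.70), and no member at 2 weeks.

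Between 18 h and 2 weeks P2ry12 and Entpd1 rose. P2ry12 was higher in all 7 retinas at 2 weeks (642 to 2121 RPKM) than in any retina at 18 h (88.3 to 360 RPKM), with a difference of 3.16 (SE 0.49, adjusted p = 0.000108 from limma). Entpd1 was also higher in all 7 (30.1 to 75.3 against 0.758 to 20.0 RPKM), with a difference of 2.13 (SE 0.55, adjusted p = 0.0266). These 2 of 8 members compare with 1.10% of all genes called higher at 2 weeks than at 18 h, and with 2.09% whose retinas all lay above those of 18 h. The call of Entpd1 was lost when 18 h retina 2 or 4 or 2-week retina 5 or 6 was left out, with differences from 1.49 to 2.38 over all retinas left out in turn. P2ry13 (1.49, SE 0.68, adjusted p = 0.309) and P2rx4 (-1.07, SE 0.64, adjusted p = 0.470) were not called. Against 4 h, 0 of 8 members were called at 18 h by limma, where 5.42% of all genes tested were called, and P2rx4 (1.46, SE 0.66) was the 1 member with an unadjusted p under 0.05, a level reached by 16.3% of all genes.

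The genes whose profile over the 28 retinas was most like that of a member were found by the root mean square difference of values standardised per gene. For P2ry12 these were Rnase4 (0.33), Gpr34 (0.34) and Gm15503 (0.40), where the median of all genes was 1.29. For P2ry13 they were Lair1 (0.43), Ighm (0.43) and Olfml3 (0.44), with a median of 1.25 for all genes. P2rx4 was most like Shisa5 (0.56), Arpc1b (0.56) and Hmox1 (0.57). The values for Adora2a (Socs2, 0.56, Gm47585, 0.58, and Procr, 0.60) and Adora2b (Lck, 0.68, Ptges, 0.68, and Tnfrsf9, 0.68) rest on the retinas in which these receptors were above 0. No other purinergic gene was among the 3 likest genes of any of these members.

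Of 57 further genes that make, release, break down, transport or transmit the signals of nucleotides and adenosine, 37 passed the filter, and 4 were called at 4 h, 1 higher and 3 lower, where 3.68% of all genes tested were called higher and 4.39% lower. Pde4b, a phosphodiesterase that degrades cyclic AMP, rose from 0.0213 to 3.57 RPKM in naïve retinas to 18.5 to 88.1 RPKM at 4 h, above all naïve values in 6 of 6 retinas (3.89, SE 0.42, adjusted p = 3.51e-08 from limma). It was 0.0167 to 4.40 RPKM at 18 h, a difference of -0.11 (SE 0.44, adjusted p = 0.932). Adcy7, an adenylyl cyclase that makes cyclic AMP, fell from 5.37 to 13.2 RPKM to 1.13 to 2.99 RPKM at 4 h, below all naïve values in 6 of 6 retinas (-1.62, SE 0.29, adjusted p = 0.000187). The share of all genes tested without overlap at 4 h was 1.65% above and 1.42% below. Slc29a3, an intracellular nucleoside transporter, fell at 4 h (-2.27, SE 0.52, adjusted p = 0.00355), from a median of 14.7 to 1.47 RPKM. Calhm2, a channel through which ATP can leave the cell, fell at 4 h (-1.23, SE 0.27, adjusted p = 0.00247 from limma) and at 18 h (-1.21, SE 0.29, adjusted p = 0.00910), from a naïve median of only 1.29 RPKM. It reached an RPKM of 1 in 8 naïve retinas and 3 at 2 weeks, and in 0 at 4 h and 0 at 18 h. Its presence among the genes tested thus rests on the groups in which it was high. It was the 1 gene of this list called at 18 h, where 1.85% of all genes tested were called lower and 2.84% higher, and 0 of 37 were called at 2 weeks by limma. With a pseudocount of 10 in place of 1, the count at 4 h was 1 higher and 0 lower, so that the calls of Adcy7, Slc29a3 and Calhm2 were lost, and at 18 h it was 0. Over 15 other settings the count at 4 h ran from 1 to 9 and that at 18 h from 0 to 3. The median difference over the 37 genes was -0.02 at 4 h and -0.11 at 18 h, beside -0.11 and -0.08 for all genes tested.

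**Figure D5:**
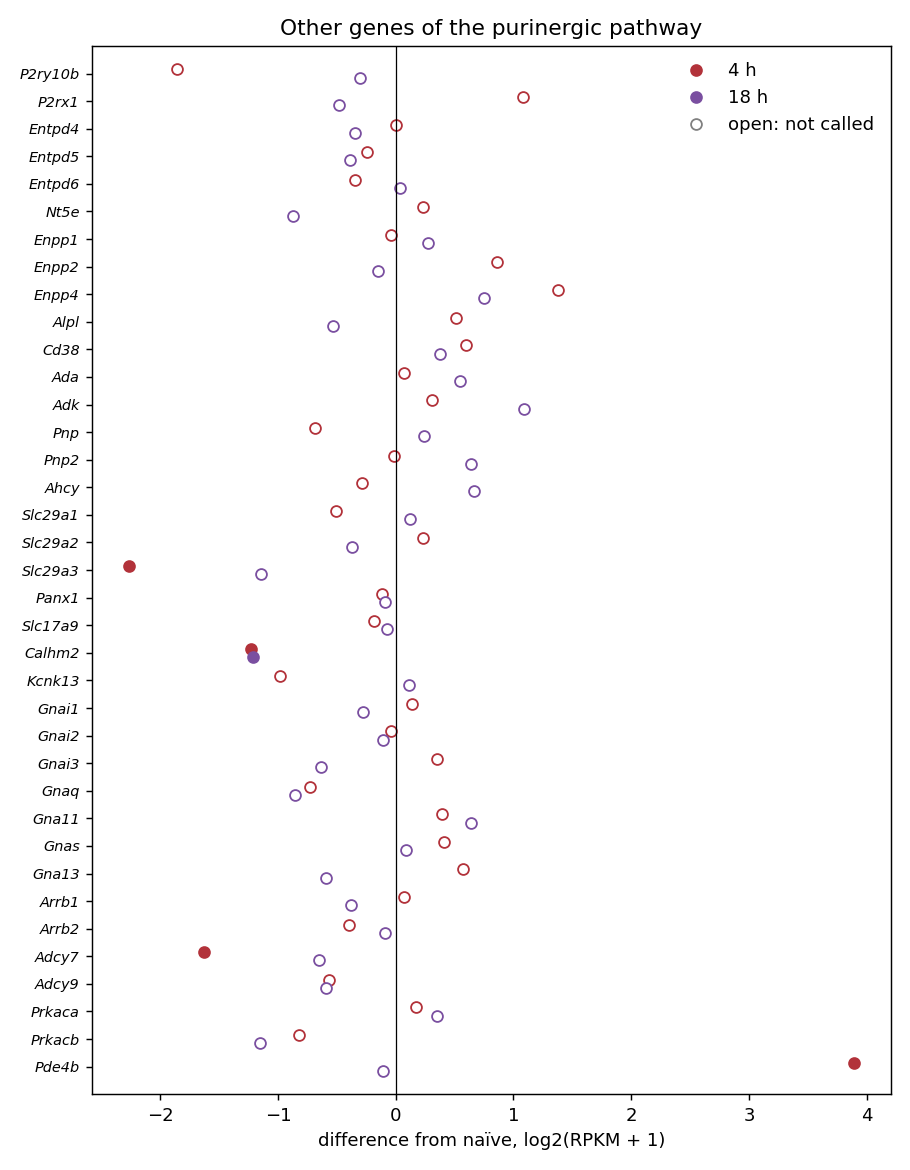
Differences from naïve retinas on the log2(RPKM + 1) scale for the 37 further purinergic genes tested, at 4 h (red) and 18 h (purple); filled points were called. Pde4b (3.89) stands apart on the right at 4 h, and Slc29a3 (-2.27), Adcy7 (-1.62) and Calhm2 (-1.23) are filled on the left.

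The partners closest to the 9 members in the pathway were mostly low. Nt5e (CD73), which turns the AMP made by ENTPD1 into adenosine, had a median of 2.01 RPKM in the naïve group, of 2.11 RPKM at 4 h, of 0.484 RPKM at 18 h and of 2.38 RPKM after 2 weeks, and was not called (-0.87 at 18 h, SE 0.53, adjusted p = 0.413 from limma). Adk, which converts adenosine back to AMP, ranged from 3.71 to 6.98 RPKM at 18 h against 0.0227 to 7.33 RPKM in naïve retinas (1.09, SE 0.51, adjusted p = 0.255). Ada, which deaminates adenosine, had medians of 0 RPKM in naïve retinas and 1.64 RPKM at 18 h (0.54, adjusted p = 0.454). Kcnk13, which encodes the potassium channel THIK-1, had medians of 8.74 RPKM in naïve retinas and 3.90 RPKM at 4 h (-0.98, SE 0.53, adjusted p = 0.302 from limma) and 8.21 RPKM at 18 h. Panx1, a channel that releases ATP, stayed at or below 2.495 RPKM in all retinas. Adora1, P2ry1 and Entpd2 did not pass the filter, with highest values of 2.20, 2.30 and 1.14 RPKM.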

How the data were processed

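Microglia from single retinas were sorted as live tdTomato-bright cells, and cDNA was made with an unstranded SMART-Seq v4 kit and sequenced. The authors aligned reads to mm10 with STAR 2.5.3a and quantified transcripts in Partek, by an estimation that can divide reads between genes, and deposited RPKM values, 1 per gene and retina, with the number of alignments. Whole reads were not recovered. Tables of the authors' own comparisons hold fold changes and p-values and were not used. Groups, experiment and eye come from the labels.

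Values were tested as log2(RPKM + 1) with limma 3.58.1 (R 4.3.3; empirical Bayes with a mean-variance trend, Benjamini-Hochberg adjustment over 13164 of 40021 genes), and the fit was tested on simulated data. Replicate numbers did not pair retinas. The 9 members, the wider lists and the tests were chosen with earlier results of these data known. Genes named are the 9 members, the listed pathway genes called at 4 h or 18 h, 9 fixed partners (Nt5e, Adora1, P2ry1, P2ry2, Entpd2, Panx1, Ada, Adk and Kcnk13), the 3 likest profiles of 5 members, Cx3cr1 and Tmem119. Med12l and Tmigd3 were added because they overlap members. Alternatives were other pseudocounts, filters, covariates, a replicate block, scalings, single experiments and each retina left out. Leaving out 7 retinas with fewer than 9000 genes detected, and the number of genes detected as a covariate, were added after seeing the data. Promoter windows are from RefSeq (GRCm38.p6), coordinates from GENCODE M21. Figures were drawn with Python 3.11.15.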

Additional observations from a re-analysis of the deposited data

Results flagged for a closer look

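In 8 of the 36 sets formed by 1 member and 1 group, a single retina stood apart from the others of its group by Dixon's test. For normally distributed values chance does so in about 1 in 20 sets, but the test was run here on RPKM without a log. The 8 sets therefore cannot be compared with that rate. Where all other retinas of a set were listed at 0, any value above 0 was flagged. P2ry6 was at 93.0 RPKM in naïve retina 1, where the others had 1.11 to 44.9 RPKM, and at 193 RPKM in 4 h retina 1, where the others had 22.5 to 72.0 RPKM. Adora2a was at 1.49 RPKM in 4 h retina 1 against 0 to 0.538 RPKM in the others. It was also at 0.0367 RPKM in naïve retina 4 and at 0.0330 RPKM in 2-week retina 1, where all others of these groups were listed at 0. Adora2b was at 2.39 RPKM in naïve retina 7 with all others at 0, at 6.67 RPKM in 18 h retina 3 against 0 to 1.83 RPKM, and at 0.794 RPKM in 2-week retina 7 against 0 to 0.333 RPKM. Naïve retina 1 had the largest number of genes at an RPKM of at least 1, 11825.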

How the results depend on the processing

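Over 43 alternatives each, the decreases of P2ry12 (-2.87 to -1.97) and P2ry13 (-3.65 to -1.97) at 4 h kept their call, and that of P2ry12 at 18 h (-3.73 to -2.76) kept it in 42. The count of members called at 18 h moved from 1 to 2 with a filter at an RPKM of 5 (P2rx4, adjusted p = 0.0452), with rescaling to equal summed RPKM and without the 7 retinas with few genes, to 3 after quantile normalisation, to 4 with the number of genes detected as a covariate, and to 0 in experiment 2 alone, and was 1 to 2 as each retina was left out. At 18 h against 4 h the number of genes detected as a covariate gave 1 (P2rx4, adjusted p = 0.0420). At 2 weeks against 18 h the count moved from 2 to 1 without a filter, with only the groups compared, in experiment 1 alone and with the replicate block (Entpd1, adjusted p = 0.0726), to 0 in experiment 2 alone, and was 1 to 2 as each retina was left out. The replicate block changed no other call of a member. Same-numbered retinas had a median correlation of 0.035 (34 pairs, -0.33 to 0.70), beside 0.0054 for 253 other pairs.

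Signs turned only for estimates that were not called. At 4 h these were P2rx4 (-0.10 in experiment 2 and -0.12 without retinas with few genes), Adora2b (-0.20) and Adora3 (-0.65), both in experiment 2. At 2 weeks against naïve retinas Adora2b was -0.0029 with a pseudocount of 10, -0.023 with the block, -1.93e-16 in experiment 1, -0.055 after quantile normalisation and -0.026 without retinas with few genes, and P2ry12 was 0.16 with the block. There P2ry13 was -0.051 in experiment 1, -0.12 without retinas with few genes and -0.063 with the covariate for genes detected, P2rx7 was -0.085 (experiment 1), -0.034 (quantile normalisation) and -0.030 (covariate), and P2ry6 was -0.16 without retinas with few genes. Leaving out each retina gave at 2 weeks -0.22 to 0.10 for P2ry12, -0.12 to 0.32 for P2ry13, -0.058 to 0.19 for P2rx7 and -0.049 to 0.23 for Adora2b. P2rx4 at 2 weeks against 18 h was 0.13 in experiment 2. The cause was not tested. Rescaling moved the median difference of all genes at 4 h from -0.11 to -0.28, and leaving out the retinas with few genes to -0.30. Fits of 1 experiment alone were not run for the difference between experiments.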

Other observations

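P2ry2, a receptor for ATP and UTP that did not pass the filter, was listed above 0 in all 6 retinas at 4 h, at 0.431 to 23.4 RPKM with a median of 2.65 RPKM. In naïve retinas it was at 0 in 5 of 10 and reached 3.24 RPKM in 1. At 18 h it was at most 0.606 RPKM and at 2 weeks at most 0.363 RPKM. The 4 h range therefore overlapped the naïve range, and this gene was not tested with the filter applied.

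P2ry14, the receptor for UDP-glucose, lies in the same Med12l locus as P2ry12 and P2ry13 and was named after its values were seen. It was low throughout, at 0 to 0.626 RPKM in naïve retinas, 0 to 0.345 RPKM at 4 h and 0 to 1.18 RPKM at 18 h. Of the neighbours in this locus, only the ADP receptors P2ry12 and P2ry13, of the 3 P2Y genes examined there, were above 2 RPKM in these cells.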
